A study of Capra hircus with 6 samples.

Results

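The genes described here encode neuronal adhesion proteins: the neurexins NRXN2 and NRXN3, the neuroligins NLGN1, NLGN2 and NLGN3, the immunoglobulin adhesion molecules CADM1 and NCAM1, the contactin CNTN1 and the contactin-associated protein CNTNAP2. They were chosen by name, and all of their transcripts in the mRNA table were taken, 32 transcripts of 9 genes among 30679 transcripts of 20225 genes. RNA of the hypothalamus was sequenced from 3 pubertal female Anhuai goats of 4.5 to 5 months and 3 prepubertal female Anhuai goats of 2.5 to 3 months, with 1 library per goat. Pubertal animals, recognised by estrus, were sampled late in the follicular phase, so that stage, age and phase of the cycle cannot be told apart. Libraries are named below by stage and replicate number, and the replicate numbers are names only.

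Neurexins sit on the presynaptic membrane and bind neuroligins on the postsynaptic membrane, and this pairing helps to align release sites with receptors. Neuroligin 1 is found mainly at excitatory synapses, neuroligin 2 mainly at inhibitory synapses and neuroligin 3 at both. The transcripts of these genes are spliced in many forms, and in neurexins and neuroligins short inserted segments change which partner is bound. In the hypothalamus, adhesion proteins lie on the neurons and on the glia that contact the terminals of gonadotropin-releasing hormone neurons.

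Levels are given in FPKM, a measure of fragments corrected for transcript length and library size. Genes can then be compared within a library, as far as their transcript models represent them. Read counts were not in the tables, which leaves the depth of each value unknown, and no interval for counting error is given. The FPKM of a transcript is an estimate that divides fragments among transcripts sharing exons, and a value of 0 was not read as absence. For the comparison of stages, limma was fitted on log2(FPKM + 1), which understates changes of low values, and adjusted p-values are Benjamini-Hochberg values over all features tested. The median log2(FPKM + 1) of the libraries lay between 3.21 and 3.26, and between 80.8% and 82.2% of the transcripts were above 0.

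The tissue label was checked against markers. PMCH, the precursor of melanin-concentrating hormone, had a mean of 1493 FPKM (673 to 2173 over libraries) and SST, somatostatin, 188 FPKM, while AVP, vasopressin, was listed at 0 in all 6 libraries. Of 6 hypothalamic markers tested, GNRH1 and POMC were higher and AGRP lower in pubertal libraries at an unadjusted p under 0.05 in limma. Over all genes 5.16% passed, and 0 of the 6 passed after adjustment. POMC measured 34.4, 85.1 and 429 FPKM in the pubertal and 47.4, 22.9 and 24.3 FPKM in the prepubertal libraries. AGRP measured 22.7, 5.69 and 28.3 against 97.5, 176 and 22.3 FPKM. OXT, TRH and HCRT were not analysed here. Neuronal markers, 7 of a list of 8, summed to 1686 to 2018 FPKM in the pubertal and 1956 to 2185 FPKM in the prepubertal libraries, and all 7 had a negative log2 fold change with a median of -0.15, none with an unadjusted p under 0.05. Pituitary markers, 5 of a list of 6, summed to 52.8 to 66.0 FPKM in the pubertal and 3.67 to 20.9 FPKM in the prepubertal libraries, with GH1 at 0 in 5 of 6 libraries and no overlap between stages in CGA and TSHB. Choroid plexus markers summed to 3.84 to 326 FPKM in the pubertal and 6.17 to 56.0 FPKM in the prepubertal libraries, the highest being pubertal 3. Astrocyte markers summed to 4201 to 4548 and 4304 to 4469 FPKM, and microglia markers to 205 to 250 and 213 to 245 FPKM. Of the 6 astrocyte markers 3 had a positive log2 fold change, and the median was -0.02. Only ALDH1L1 was without overlap, higher in the pubertal libraries with a mean of 15.2 against 9.42 FPKM (limma, adjusted p = 0.795). Over all genes, 9.75% did not overlap between the stages. Oligodendrocyte markers summed to 1486 to 4664 and 1097 to 2290 FPKM, with MBP between 0 and 3333 FPKM, and markers of forebrain neurons outside the hypothalamus to 23.4 to 25.7 and 15.7 to 23.3 FPKM. The part of these cell types in the values below was not tested, and in whole tissue fewer cells of a type and less RNA per cell cannot be told apart.

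Beside NLGN1, NRXN2 and NRXN3 the study's list of genes within 10 kb of a long noncoding RNA (lncRNA) named 4 loci. The first 240 bases of 2 of them are shown, that beside NRXN2 because it was the one whose stages did not overlap, and the most abundant one beside NRXN3 for contrast. They are printed as deposited, 5′ to 3′.
TCONS_03371683 (beside NRXN2): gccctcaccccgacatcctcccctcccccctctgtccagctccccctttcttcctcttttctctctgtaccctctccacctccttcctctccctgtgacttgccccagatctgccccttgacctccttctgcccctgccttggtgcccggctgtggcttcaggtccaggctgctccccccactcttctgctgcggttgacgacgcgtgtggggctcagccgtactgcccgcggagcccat
TCONS_00491347 (beside NRXN3): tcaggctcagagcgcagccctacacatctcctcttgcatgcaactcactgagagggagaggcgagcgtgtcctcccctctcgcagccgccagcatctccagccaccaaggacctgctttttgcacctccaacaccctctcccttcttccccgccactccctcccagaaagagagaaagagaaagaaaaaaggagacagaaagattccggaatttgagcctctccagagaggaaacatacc
The transcript beside NRXN2 was 737 nt long with a GC content of 62.1%, and the one beside NRXN3 was 346 nt long with 52.9%. The position and strand of the lncRNAs relative to the genes were not analysed here.

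The 9 genes spanned a 19.6-fold range of levels. CNTN1, a glycosylphosphatidylinositol-anchored protein of axons and glia, was the highest with a mean of 186 ± 18.9 FPKM (SD, n = 6 libraries). It was followed by NCAM1, the neural cell adhesion molecule, at 88.5 ± 3.78 FPKM and by CADM1, a synaptic and glial adhesion molecule, at 75.9 ± 6.92 FPKM. CNTNAP2, which clusters potassium channels along axons, had 36.8 ± 1.97 FPKM. The neurexins and neuroligins were lower. NLGN1 had 21.9 ± 1.68 FPKM, NRXN2 20.4 ± 1.79 FPKM, NLGN2 14.8 ± 3.04 FPKM, NRXN3 13.5 ± 1.44 FPKM and NLGN3 9.45 ± 0.623 FPKM (SD, n = 6 each).

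Between neighbours in this order, 5 of 8 differences had the same sign in 6 of 6 libraries (two-sided exact test by sign-flip permutation, p = 0.031, below which 6 libraries cannot go, and 0.05 after adjustment over the 8 pairs). These were CNTN1 over NCAM1, CADM1 over CNTNAP2, CNTNAP2 over NLGN1, NRXN2 over NLGN2, and NRXN3 over NLGN3. The sign differed between libraries for the other 3 neighbours. NCAM1 lay above CADM1 in 5 libraries (exact p = 0.0625), NLGN1 above NRXN2 in 4 (exact p = 0.25) and NLGN2 above NRXN3 in 4 (exact p = 0.469). The order was set by the means of the same 6 libraries, so these p-values are no independent support for it. The order also depends on summing transcripts. With only the most abundant transcript of each gene, 4 of those 5 pairs kept their sign in every library, while NRXN3 lay below NLGN3 in all 6, at 4.76 against 9.45 FPKM. NCAM1 then lay below CADM1 and NLGN1 below NRXN2 in all 6 libraries, and NLGN2 lay above NRXN3 in all 6. The place of NLGN2 rests on a single transcript of 1387 nt, and how much of the gene it covers was not analysed here.

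**Figure D1:**
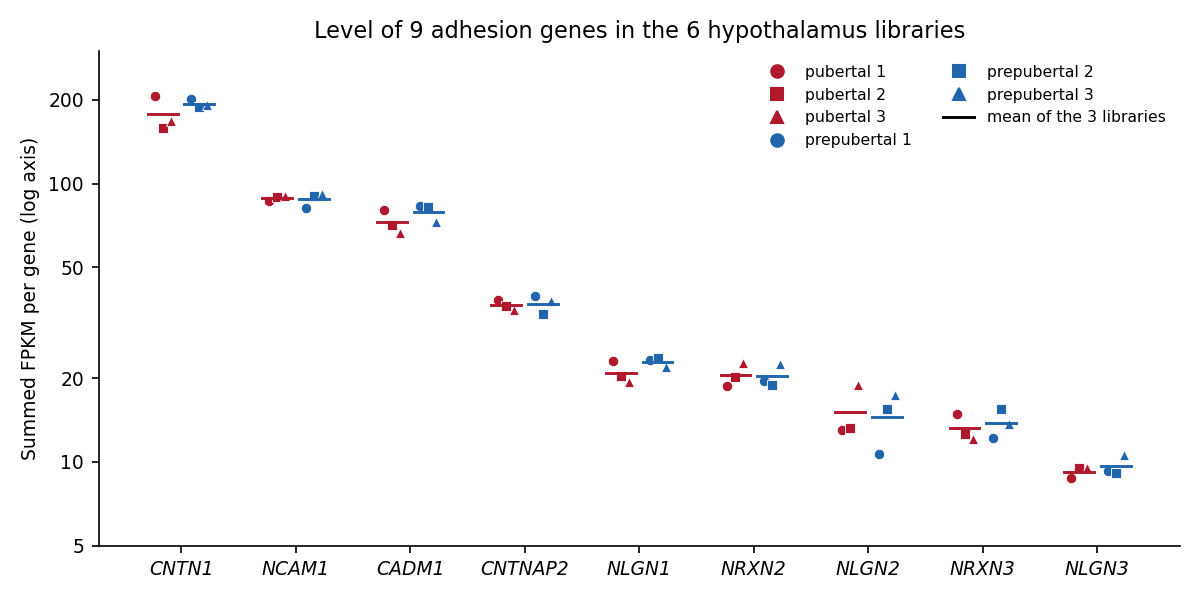
Summed FPKM of each gene (log axis) in each of the 6 libraries, pubertal in red and prepubertal in blue, with the mean of each stage as a line. The genes fall from CNTN1 at 186 FPKM to NLGN3 at 9.45 FPKM, and the points of both stages overlap in each of the 9 genes.

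Of the summed FPKM of NLGN1, NLGN2 and NLGN3, NLGN1 took 47.7% with a range of 40.7% to 53.8%, NLGN2 31.9% with a range of 24.7% to 39.5%, and NLGN3 20.5% with a range of 19.0% to 22.0%. The spread of the neuroligin mix lay mainly in NLGN1 and NLGN2, both of which ranged more widely than NLGN3. NLGN2 was read from a single transcript of 1387 nt. That of NLGN3 had 3863 nt and the most abundant one of NLGN1 5168 nt. How much of its gene the NLGN2 transcript covers was not analysed here, so the shares may depend on the transcript models. None of the 3 shares differed between stages beyond the spread of the goats (exact two-sided permutation tests, p between 0.6 and 1, where 3 libraries against 3 cannot give less than 0.1).

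The stages were then compared gene by gene, to ask whether the synaptic adhesion genes change in the hypothalamus at puberty. None of the 9 genes passed the test. The count at an unadjusted p under 0.05 in limma was 0 of 9, beside 5.16% of the 16397 genes tested, and the count at an adjusted p under 0.05 was 0 for the 9 and 0 for all genes. The stages overlapped in 9 of 9, where 9.75% of all genes did not overlap. Log2 fold changes (pubertal over prepubertal) were negative in 6 genes and positive in 3, with a median of -0.05 beside -0.00065 for all genes.

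CNTN1 measured 206, 159 and 167 FPKM in pubertal 1 to 3 and 202, 188 and 191 FPKM in prepubertal 1 to 3. Pubertal 1 was the highest library of all, and pubertal 2 and 3 were the lowest. The log2 fold change was -0.13 with a 95% interval of -0.39 to 0.13 (limma, adjusted p = 0.962).

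CADM1 showed the same fold change. It measured 80.2, 71.1 and 66.3 FPKM in the pubertal and 82.9, 82.5 and 72.5 FPKM in the prepubertal libraries, with pubertal 1 inside the prepubertal range and the other pubertal libraries below it. Its log2 fold change was -0.13 with an interval of -0.36 to 0.10 (limma, adjusted p = 0.962).

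NCAM1 was the steadiest. It measured 86.7, 89.6 and 90.2 FPKM in the pubertal and 81.6, 90.6 and 92.0 FPKM in the prepubertal libraries, with a log2 fold change of 0.01 and an interval of -0.17 to 0.20. CNTNAP2, at 38.0, 36.4 and 35.3 FPKM against 39.4, 34.0 and 37.8 FPKM, had a log2 fold change of -0.02 with an interval of -0.22 to 0.19. Both intervals lay within -0.22 and 0.20 on the log2 scale.

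Among the neuroligins, NLGN1 measured 23.0, 20.4 and 19.4 FPKM in the pubertal and 23.3, 23.5 and 21.9 FPKM in the prepubertal libraries. Pubertal 1 again lay within the prepubertal range, and the log2 fold change was -0.13 with an interval of -0.34 to 0.09. NLGN2 varied most among the 9 genes, with 13.1, 13.2 and 18.9 FPKM against 10.7, 15.5 and 17.4 FPKM. The spread within each stage was wider than the difference between them, a log2 fold change of 0.06 with an interval of -0.40 to 0.51. NLGN3 held 8.72, 9.48 and 9.47 FPKM against 9.30, 9.13 and 10.6 FPKM, a log2 fold change of -0.06 with an interval of -0.30 to 0.18.

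The neurexins were as close between stages. NRXN2 measured 18.7, 20.2 and 22.7 FPKM in the pubertal and 19.5, 18.9 and 22.5 FPKM in the prepubertal libraries, with a log2 fold change of 0.02 and an interval of -0.24 to 0.27. NRXN3 measured 14.9, 12.6 and 12.1 FPKM against 12.2, 15.5 and 13.6 FPKM, with a log2 fold change of -0.05 and an interval of -0.34 to 0.23. In each gene both the highest and the lowest values of the stages were close together. Adjusted p-values of the 9 genes in limma lay between 0.962 and 0.996.

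The directions of NCAM1, NRXN2 and CNTNAP2 depend on the scaling. Centring each library on its median gave log2 fold changes of -0.02 for NCAM1 and -0.02 for NRXN2, and quantile normalization gave 0.01 for CNTNAP2. The counts rest in part on pubertal 1. Without it, CNTN1 had a log2 fold change of -0.25 (limma, adjusted p = 0.293) and NLGN1 one of -0.19 (limma, adjusted p = 0.361), both at an unadjusted p under 0.05, while 13.5% of all genes then had an unadjusted p under 0.05.

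**Figure D2:**
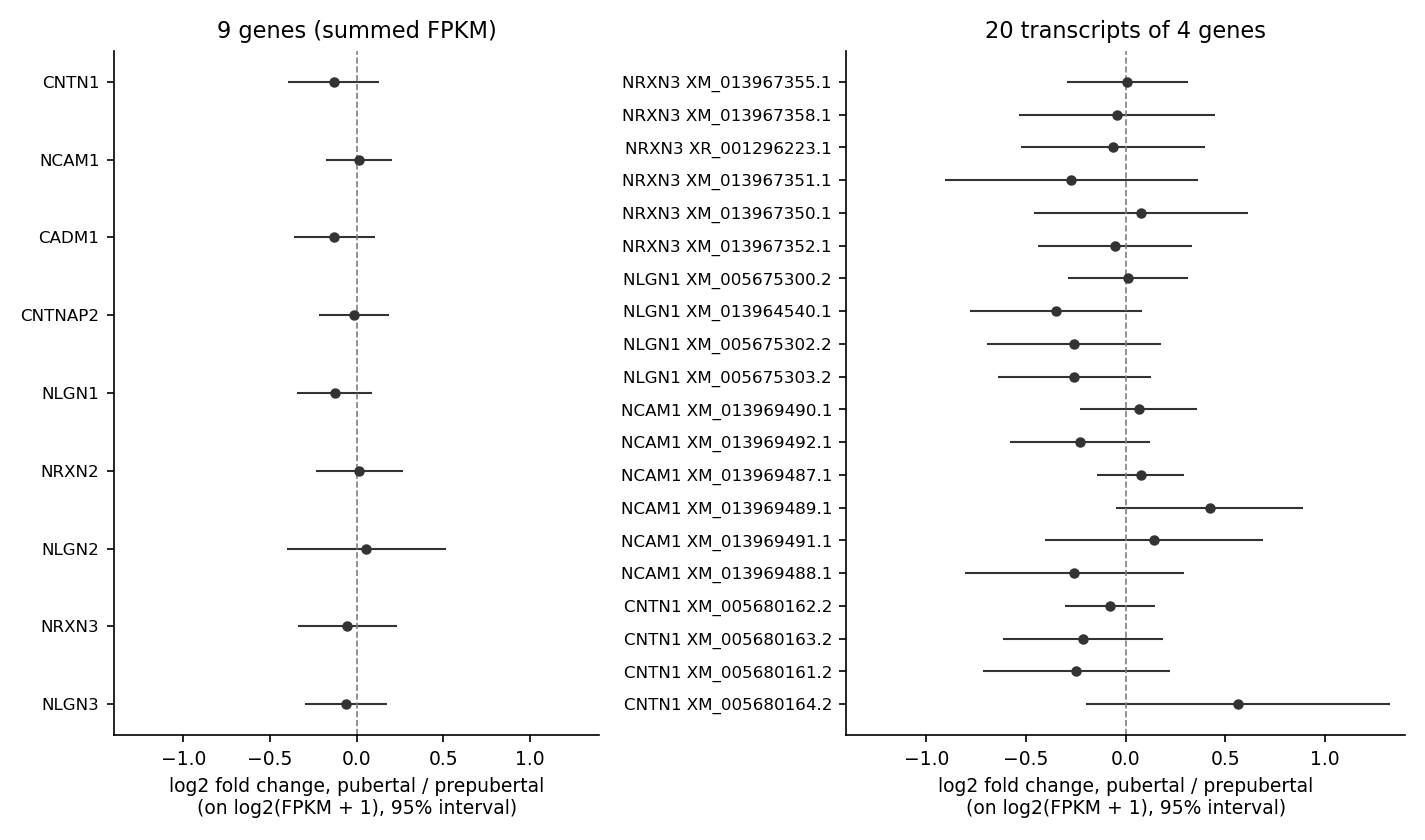
Log2 fold change of pubertal over prepubertal libraries with its 95% interval from limma on log2(FPKM + 1), for the 9 genes (left) and for the 20 tested transcripts of the 4 genes with several transcripts (right). Each interval crosses 0; among genes NLGN2 has the widest, from -0.40 to 0.51, and among transcripts XM_005680164.2 of CNTN1, from -0.20 to 1.32.

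A single transcript stood for NRXN2, NLGN2, NLGN3, CADM1 and CNTNAP2, so their isoforms could not be compared. The transcript of NLGN2 was the shortest of the 32 at 1387 nt. The other 4 genes held 27 transcripts, of which 6, all of NRXN3, were listed at 0 in all 6 libraries. In 3 of these 4 genes, NLGN1, NCAM1 and CNTN1, the same transcript was the most abundant in every library (sign-flip permutation, exact p = 0.031, adjusted over the 4 genes 0.0417). The transcripts compared were picked by their mean shares in the same 6 libraries, so the p-values are no independent support. Among the 3624 genes with 2 or more transcripts above 0 and a mean sum of at least 1 FPKM, 75.8% kept the same first transcript in every library. Over all 3624 genes, the largest mean share of a transcript had a median of 72.1%.

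NLGN1 was carried mostly by XM_005675300.2 of 5168 nt, which took 69.2 ± 5.96% of the gene (SD, n = 6). It measured 17.1, 13.7 and 14.8 FPKM in the pubertal and 15.7, 16.5 and 13.1 FPKM in the prepubertal libraries. The next, XM_013964540.1 of 5228 nt, took 24.5 ± 4.54% and measured 4.97, 5.63 and 3.40 FPKM against 6.48, 5.47 and 6.44 FPKM. Pubertal 3 was lowest and the ranges overlapped through pubertal 2, with a log2 fold change of -0.35 (SE 0.18, limma adjusted p = 0.972). The 2 remaining transcripts together held the rest, with mean shares of 4.58% and 1.67%.

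The 4 NLGN1 transcripts form a square, since they exceed the shortest by 27 nt, by 60 nt or by both. These lengths are those of 9 and 20 residues. Neuroligin 1 is known to be spliced at sites called A and B, and an insert at site B alters the binding of neurexins, but the transcript sequences were not analysed here and the lengths were not assigned to exons. Forms longer by 27 nt took 93.9 ± 2.48% of one pair and 93.7 ± 2.48% of the other. Forms longer by 60 nt took 26.2 ± 5.21% in one pair and 25.8 ± 5.43% in the other. The shares in the 2 pairs differed by no more than 0.285 percentage points in any library for the 27 nt and 0.740 points for the 60 nt, although they ranged from 89.1% to 96.4% and from 17.9% to 33.0% over libraries. The first pair was higher in 6 of 6 libraries for the 27 nt (sign-flip permutation, exact p = 0.031, below which 6 libraries cannot go). The sign for the 60 nt is fixed by that for the 27 nt, since both compare the same 4 transcripts, so it is no second result. Adjustment over 9 comparisons of pairs left 0.031, but these hold such repeats, so the adjusted value was not read further. Whether single RNA molecules combine the segments in this way was not tested, since an FPKM does not follow a molecule from end to end.

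NCAM1 was spread over 6 transcripts, of which 3 held 88.2% of it. XM_013969490.1 of 5219 nt took 41.9 ± 4.09%, XM_013969492.1 of 5189 nt 28.3 ± 4.82% and XM_013969487.1 of 5330 nt 18.0 ± 0.652% (SD, n = 6). The first measured 38.9, 33.7 and 41.0 FPKM in the pubertal and 32.2, 42.0 and 34.6 FPKM in the prepubertal libraries. The second measured 22.3, 27.3 and 19.3 FPKM against 27.6, 23.3 and 30.1 FPKM. The 3 libraries highest for the first were the 3 lowest for the second, and both are estimates over models of nearly equal length. The third was the most even, at 16.6, 16.1 and 16.4 FPKM against 14.2, 16.4 and 15.9 FPKM.

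The NCAM1 transcripts differ by 3, 30 and 108 nt, the lengths of 1, 10 and 36 residues. NCAM1 is known for an alternative exon in an immunoglobulin domain called VASE, and the lengths were not assigned to it. Forms longer by 30 nt took 60.2 ± 6.45% and 59.7 ± 6.29% in the 2 pairs that differ by it. The form longer by 3 nt behaved otherwise. It took 14.2 ± 2.96% and 14.0 ± 2.93% in the 2 pairs of shorter transcripts, but 98.6 ± 1.72% in the pair of 5330 and 5327 nt. The difference from the first of these was 84.4 ± 2.98 percentage points (SD, n = 6) and had the same sign in 6 of 6 libraries (sign-flip permutation, exact p = 0.031). Read the other way, forms longer by 108 nt took 72.4 ± 4.85% of the pair with the 3 nt and 0.595 ± 0.716% of the pair without them. These pairs were singled out after the values were seen, and they share transcripts. The 5327 nt transcript, XM_013969488.1, had a mean of 0.229 FPKM and was listed at 0 in 3 of 6 libraries. The 98.6%, the 84.4 points and the 0.595% all rest on this value near 0.

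CNTN1 had 2 long transcripts, XM_005680162.2 of 5692 nt and XM_005680161.2 of 5903 nt, and 2 short ones, XM_005680163.2 of 2978 nt and XM_005680164.2 of 3189 nt. The first took 48.9 ± 3.26% of the gene, XM_005680163.2 28.7 ± 2.65% and XM_005680161.2 20.5 ± 2.68%, together 98.1%. XM_005680162.2 measured 96.6, 82.8 and 84.4 FPKM in the pubertal and 94.3, 98.9 and 85.5 FPKM in the prepubertal libraries. XM_005680163.2 measured 61.5, 37.7 and 50.6 FPKM against 59.6, 52.3 and 59.4 FPKM, and XM_005680161.2 measured 46.3, 32.4 and 27.1 FPKM against 45.5, 34.7 and 43.5 FPKM. Pubertal 1 was the highest library for XM_005680163.2 and XM_005680161.2.

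The 211 nt by which members of each CNTN1 pair differ took unequal shares. Forms with them made up 29.5 ± 3.93% of the long pair and 6.35 ± 4.20% of the short pair, a difference of 23.2 ± 7.07 percentage points (SD) in the same direction in 6 of 6 libraries (sign-flip permutation, exact p = 0.031). Long forms held 69.4 ± 2.18% of CNTN1 in all. The rarest transcript, XM_005680164.2, held 1.92% of the gene. It measured 1.94, 5.93 and 5.21 FPKM in the pubertal and 2.40, 2.09 and 2.74 FPKM in the prepubertal libraries. Pubertal 2 and 3 lay above all prepubertal libraries and pubertal 1 below them, and the log2 fold change was 0.56 with an interval of -0.20 to 1.32 (limma, adjusted p = 0.972).

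**Figure D3:**
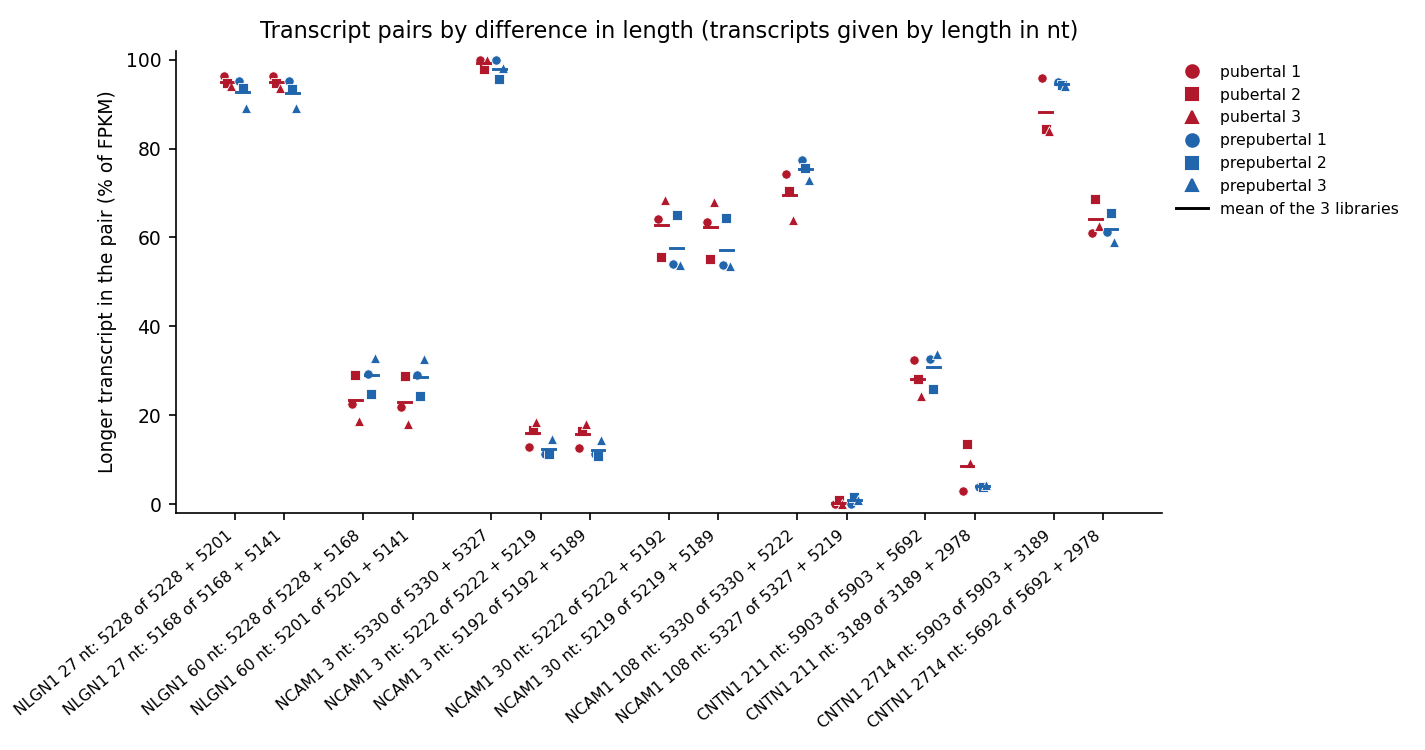
Share of the longer transcript in pairs of transcripts of one gene that differ by a given length, in percent of the FPKM of the pair (y axis), by library, with pairs named by gene, difference and the lengths of both transcripts (x axis). The NLGN1 pairs lie side by side at 93.9% and 93.7% and at 26.2% and 25.8%, while the NCAM1 pairs that differ by 3 nt lie at 98.6%, 14.2% and 14.0%. The 98.6% rests on a 5327 nt transcript with a mean of 0.229 FPKM, listed at 0 in 3 libraries.

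NRXN3 was divided most evenly. Of its 13 transcripts, 4 held 98.0% of the FPKM. XM_013967355.1 of 6858 nt took 35.5 ± 2.74% and XM_013967358.1 of 6205 nt 30.9 ± 4.25%, and the first led in 5 of 6 libraries (sign-flip permutation, exact p = 0.188). The exception was pubertal 1, where the second reached 38.8% against 32.3%. XR_001296223.1 of 5416 nt, whose identifier is that of a noncoding transcript, took 18.9 ± 3.96%, and XM_013967351.1 of 7288 nt took 12.7 ± 4.05%.

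XM_013967355.1 was steady at 4.82, 4.86 and 4.63 FPKM in the pubertal and 4.49, 5.25 and 4.49 FPKM in the prepubertal libraries. XM_013967358.1 measured 5.78, 3.47 and 3.26 FPKM against 3.75, 4.65 and 4.29 FPKM, so that the pubertal libraries held both its highest and its lowest values. The noncoding form measured 2.02, 2.29 and 3.03 FPKM against 1.95, 3.10 and 2.77 FPKM. XM_013967351.1 measured 2.28, 1.70 and 0.598 FPKM against 1.97, 1.90 and 1.89 FPKM. The low value belonged to pubertal 3, the library in which XM_013967350.1, a form 9 nt longer, had its highest value of 0.571 FPKM. The division of fragments between these forms was not tested.

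**Figure D4:**
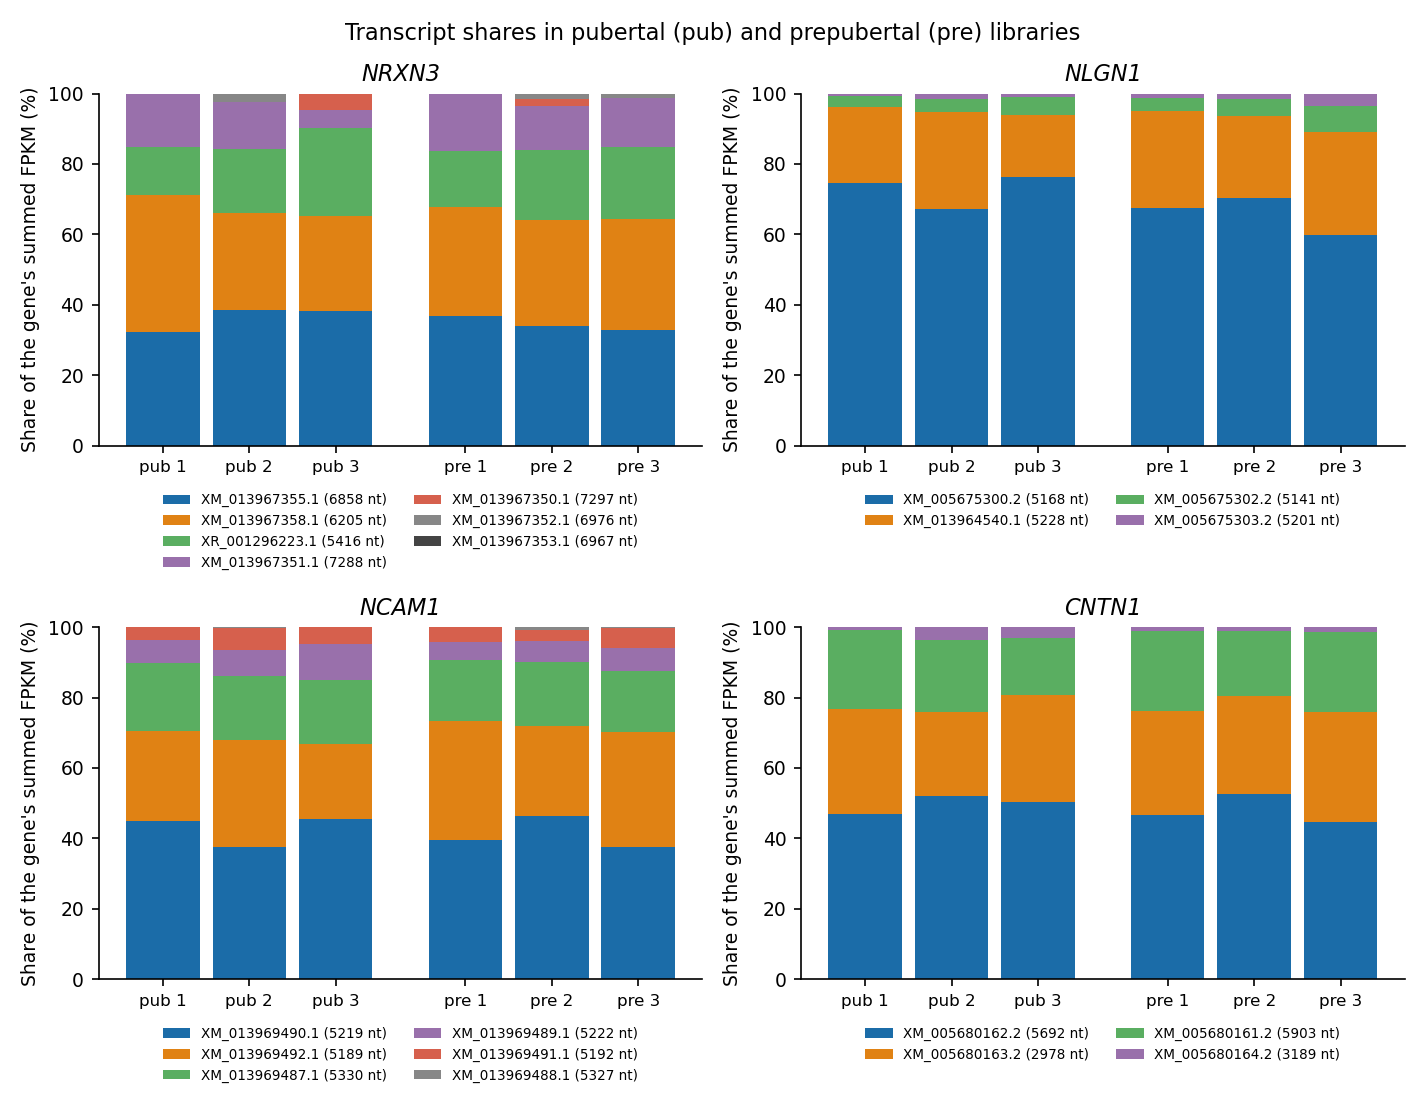
Share of each transcript in the summed FPKM of its gene (y axis, percent), stacked for each of the 3 pubertal and 3 prepubertal libraries, for NRXN3, NLGN1, NCAM1 and CNTN1. XM_005675300.2 forms the largest block of NLGN1 in all libraries, and in NRXN3 the blocks of XM_013967355.1 and XM_013967358.1 change order in pubertal 1.

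No difference in isoform mix between the stages passed the tests used. None of the 21 shares tested had an unadjusted p under 0.05 in limma on the arcsine square root of the share, beside 4.29% of the 12010 shares tested, and the count at an adjusted p under 0.05 was 0 for the 21 and 0 for all. The share of XM_013969489.1 of NCAM1 was the only one of the 21 whose stages did not overlap, where 8.93% of all shares did not. It was 6.62%, 7.54% and 10.3% in the pubertal and 5.05%, 5.85% and 6.46% in the prepubertal libraries, with pubertal 1 and prepubertal 3 nearly equal. The difference had an adjusted p of 0.952 in limma. Summed over the 3 pairs of NCAM1, forms longer by 3 nt took 29.4%, 31.6% and 33.2% against 26.7%, 27.1% and 29.3% (exact permutation test, p = 0.1, the smallest that 3 libraries against 3 allow, and 0.75 adjusted over 10 length differences). Forms of NLGN1 longer by 60 nt took 22.5%, 29.1% and 18.6% against 29.2%, 24.8% and 33.0% (exact permutation test, p = 0.2).

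Single transcripts gave the same picture. In limma 0 of the 25 transcripts tested had an unadjusted p under 0.05, beside 4.87% of the 23821 transcripts tested, and 0 of 25 and 0 of 23821 had an adjusted p under 0.05. The stages did not overlap in 1 of the 25, beside 9.56% of all transcripts. This was XM_005675303.2, the least abundant form of NLGN1, with 0.188, 0.313 and 0.218 FPKM in the pubertal and 0.326, 0.372 and 0.781 FPKM in the prepubertal libraries (limma log2 fold change -0.26, adjusted p = 0.972). Pubertal 2 and prepubertal 1 were nearly equal. The smallest unadjusted p belonged to XM_013969489.1 of NCAM1, at 5.74, 6.76 and 9.30 FPKM against 4.12, 5.30 and 5.94 FPKM, with a log2 fold change of 0.42 and an interval of -0.05 to 0.89 (limma, adjusted p = 0.972). Without pubertal 1 the count rose to 4, namely XM_013969489.1 of NCAM1 and XM_005680161.2, XM_005680163.2 and XM_005680164.2 of CNTN1, beside 10.6% of all transcripts. Without pubertal 2 it was 2, XM_013964540.1 of NLGN1 and XM_013969492.1 of NCAM1, beside 6.13% of all transcripts. Their adjusted p-values in limma lay between 0.345 and 0.799.

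Of the 4 lncRNAs beside these genes, 0 had an unadjusted p under 0.05 in limma, beside 3.52% of the 2925 lncRNA transcripts tested, and 0 had an adjusted p under 0.05, beside 1 of all 2925. The stages did not overlap in 1 of the 4, beside 6.67% of all lncRNA transcripts. This was TCONS_03371683 near NRXN2, whose first bases are printed above. It measured 1.86, 2.69 and 2.68 FPKM in the pubertal and 2.95, 4.11 and 3.97 FPKM in the prepubertal libraries, with a log2 fold change of -0.46 (SE 0.22, limma, adjusted p = 0.943). NRXN2 itself had a log2 fold change of 0.02 in the same libraries. Without prepubertal 1, the log2 fold change of the lncRNA was -0.57 and its unadjusted p was under 0.05 (limma, adjusted p = 0.870).

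The lncRNAs beside NRXN3 and NLGN1 overlapped between the stages. TCONS_00491347 measured 5.10, 6.48 and 6.53 FPKM in the pubertal and 2.57, 4.83 and 7.13 FPKM in the prepubertal libraries, with prepubertal 1 the lowest and prepubertal 3 the highest of all. TCONS_00595747, also beside NRXN3, measured 0.742, 0.330 and 0.716 FPKM against 0.215, 0.575 and 0.499 FPKM. TCONS_00281533 beside NLGN1 measured 2.21, 1.69 and 2.73 FPKM against 1.92, 2.27 and 1.85 FPKM. Their log2 fold changes were 0.34, 0.16 and 0.08. All 4 lncRNAs were less abundant than the summed transcripts of the genes beside them. NLGN1, NRXN2 and NRXN3 had mean sums of 21.9, 20.4 and 13.5 FPKM and the lncRNAs had means of 0.513 to 5.44 FPKM. Against single transcripts this did not hold for NRXN3, whose most abundant one, XM_013967355.1, had a mean of 4.76 FPKM beside 5.44 FPKM for TCONS_00491347.

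**Figure D5:**
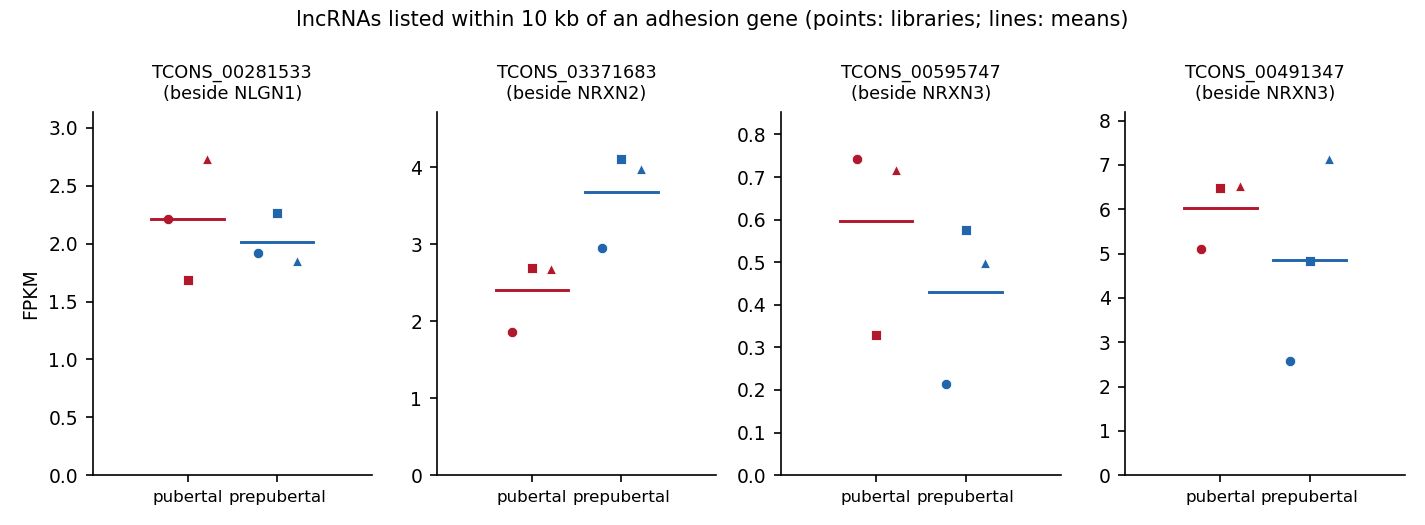
FPKM (y axis, from 0) of the 4 lncRNA transcripts listed within 10 kb of NLGN1, NRXN2 or NRXN3, with 1 point per library and the mean of each stage as a line. In the panel of TCONS_03371683 the pubertal points lie between 1.86 and 2.69 FPKM, below the prepubertal points at 2.95 to 4.11 FPKM.

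Other genes of the synaptic adhesion system and its scaffolds were read from 6 lists. Besides the 9 genes above, 67 were tested, with log2 fold changes negative in 43 and positive in 24 and a median of -0.04. At an unadjusted p under 0.05 in limma 1 was lower and 1 higher, where 5.16% of all genes passed, and 0 passed after adjustment. The stages did not overlap in 7 of the 67, 6 lower and 1 higher, where 9.75% of all genes did not overlap. SLITRK4, a postsynaptic partner of receptor phosphatases, measured 8.63, 7.91 and 7.75 FPKM in the pubertal and 9.90, 10.4 and 9.53 FPKM in the prepubertal libraries, a log2 fold change of -0.27 (limma, adjusted p = 0.883). CNTN2, the axonal contactin that holds CNTNAP2 near the nodes of myelinated fibres, measured 21.0, 22.9 and 21.5 FPKM against 16.5, 15.5 and 21.2 FPKM, a log2 fold change of 0.30 (limma, adjusted p = 0.958).

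By list, with the 9 genes included, the median log2 fold change was 0.04 over 6 presynaptic neurexins and receptor phosphatases. It was -0.08 over 23 neuroligins and other postsynaptic partners, of which CLSTN1 was the most abundant at 153 FPKM. It was -0.02 over 9 latrophilins and their partners, led by ADGRL3 at 32.1 FPKM, and -0.03 over 13 immunoglobulin adhesion proteins, led beside the genes above by CADM4 at 124 FPKM. It was -0.09 over 10 contactins and contactin-associated proteins and their anchor EPB41L3, which measured 52.2 FPKM on average. It was -0.01 over 15 scaffolds, led by DLG4, the postsynaptic density protein that binds neuroligins, at 49.9 FPKM.

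The genes most like 7 of the 9 in their variation over the 6 libraries were sought among the 75 others of these lists and the 9, by the root mean square difference of centred log2(FPKM + 1). NLGN1 was nearest to NCAM2 with a difference of 0.02, against its own SD of 0.11 over the libraries. CADM1 was nearest to NLGN1 at 0.03, NRXN2 to MDGA1 at 0.03 and NLGN3 to FLRT1 at 0.03. NRXN3 was nearest to ADGRL3 and CNTN1 to LRRTM2, both at 0.06. For NCAM1 the nearest, FLRT1, differed by 0.06, about as much as the SD of NCAM1 itself, 0.06. MDGA1 and FLRT1 had means of only 1.87 and 1.03 FPKM, where log2(FPKM + 1) flattens variation, so their nearness may partly reflect the scale. All these are descriptions over 6 libraries that share their depth and tissue sampling.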

How the data were processed

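Hypothalamus RNA of 6 female goats, 3 pubertal and 3 prepubertal, was sequenced in strand-specific, rRNA-depleted, paired-end libraries. The authors used TopHat for alignment and Scripture and Cufflinks 2.1.1 for assembly, and deposited FPKM values per transcript and library, with transcript lengths and lncRNA sequences. The genome build is not given in the sources used here, so no coordinates are printed. The authors' table of Cuffdiff 2.1.1 comparisons (group FPKM, fold changes, p and q-values) was not used.

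FPKM was summed by gene and fitted as log2(FPKM + 1) for features with a mean of at least 0.1 FPKM with limma 3.58.1 (lmFit, eBayes with a trend, two-sided) in R 4.3.3, checked on simulated data. Shares were fitted as the arcsine square root for genes with a mean sum of at least 1 FPKM, and lncRNAs in their own fit. The threshold was 0.05 after Benjamini-Hochberg adjustment over each whole table. Tables, exact tests and plots were made in Python 3.11.15 (pandas 2.3.3, numpy 2.4.6, matplotlib 3.10.9, scipy 1.17.1). Symbols were taken from RefSeq (assembly ARS1.2), which matched 19083 of 20225 genes (94.4%).

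Alternatives were a pseudocount of 0.1, no minimum, a minimum mean of 1 FPKM (gene sum of 5 for shares), no trend, quantile normalization, median centring, a log2 ratio for shares, length-weighted values, the replicate number as a block and each library left out in turn. The length differences were compared after the values were seen. The genes and lists were chosen with earlier results of these data known. Transcripts named singly were the most abundant of each gene, those with a share of at least 10%, and those with an unadjusted p under 0.05. XM_005680164.2, XM_013969489.1, XM_005675303.2, XM_013967350.1, marker genes and the members of length pairs were named beyond this rule, with their values known. For each list, the most abundant gene and those with an unadjusted p under 0.05 were named. Results that need a withheld item are not reported here.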

Additional observations from a re-analysis of the deposited data

How the results depend on the processing

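The counts of genes, transcripts, shares and neighbouring lncRNAs with an unadjusted p under 0.05 in limma were 0 in the fits reported and under the alternative pseudocount, minima, scalings and the fit without a trend, where each was run. With the replicate number as a block the transcript count was 1 (XM_013969489.1 of NCAM1, log2 fold change 0.42, limma adjusted p = 0.999) beside 4.83% of all transcripts, and the gene and share counts were 0. The numbers do not pair the goats, since deviations of same-numbered libraries correlated at -0.004, -0.03 and 0.04 for numbers 1 to 3. Leaving out each library in turn gave 0 to 4 transcripts, 0 to 2 genes, 0 to 1 shares (XM_005680164.2 of CNTN1, without pubertal 1, beside 5.47% of all shares) and 0 to 1 lncRNAs (without prepubertal 1, beside 4.82% of all lncRNAs), and 0 of the named features passed the adjusted threshold under any alternative.

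Of 493 values over 47 named results, 50 reversed their direction, 44 of them with a library left out, and the cause was not tested. Median centring gave log2 fold changes of -0.0217 for the NCAM1 sum, -0.0209 for the NRXN2 sum, -0.0315 for XM_013967355.1 and -0.0305 for XM_005675300.2. Quantile normalization gave 0.0116 for the CNTNAP2 sum and -0.0324 for XM_013967355.1. With single libraries left out, the log2 fold changes of the sums ran from -0.0383 to 0.0471 for NCAM1, -0.0760 to 0.0269 for CNTNAP2, -0.0562 to 0.0902 for NRXN2, -0.1360 to 0.1907 for NLGN2 and -0.1373 to 0.0293 for NRXN3. Those of transcripts ran from -0.0223 to 0.0716 for XM_013967355.1, -0.2567 to 0.0781 for XM_013967358.1, -0.2023 to 0.0364 for XR_001296223.1, -0.4911 to 0.0277 for XM_013967351.1, -0.0834 to 0.0782 for XM_005675300.2, -0.0145 to 0.1721 for XM_013969490.1 and -0.0342 to 0.2031 for TCONS_00281533. Differences of shares (arcsine square root) ran from -0.0391 to 0.0241 for XM_013967358.1, -0.0396 to 0.0338 for XR_001296223.1, -0.0846 to 0.0042 for XM_013967351.1, -0.0028 to 0.0414 for XM_013969490.1, -0.0305 to 0.0062 for XM_005680163.2 and -0.0377 to 0.0021 for XM_005680161.2. Stage differences in the share of longer forms ran from -3.135 to 21.17 percentage points for NRXN3 (9 nt), -1.64 to 5.607 for NRXN3 (321 nt), -1.938 to 0.2232 for NCAM1 (108 nt), -1.711 to 1.235 for CNTN1 (211 nt) and -1.341 to 1.603 for CNTN1 (2714 nt).

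With a library left out, 5 to 6 of 8 neighbouring pairs of genes had the order reported in every remaining library, and with the most abundant transcripts only it was 5, of which 4 were among those reported, while 3 pairs reversed in all 6 libraries. The most abundant transcript was the same in every library in 3 to 4 of 4 genes. Length-weighted values gave 3 of 4.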
